A study of Mus musculus with 3 samples.

Results

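Small nucleolar RNAs (snoRNAs) are described here through the crosslink positions that a deposited list of ZFP36L1 and ZFP36L2 iCLIP data assigned to them. All rows whose gene biotype was snoRNA were taken, which gave 2428 positions in 272 genes, of 462392 positions in all. Their counts summed to 7859 of 814493, or 0.965% (95% Wilson interval 0.944 to 0.986) of the counts, and they made up 0.525% (0.505 to 0.546) of the positions. All of these rows carried the segment label ncRNA. The intervals cover counting error only, and those of shares of counts treat each count as a separate event. A count of 2 stood at 42.4% of snoRNA positions, against 27.2% with a count of 1 and 6.55% with a count of 3. In the whole list these shares were 44.0%, 50.5% and 1.88%. With counts halved and rounded up, the snoRNA share of counts was 0.837%, outside its interval. The source of the excess of 2 over 3 was not tested.

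In iCLIP, ultraviolet light links a protein to the RNA it touches, and many cDNAs end next to the linked base, which serves to place it. The series holds 1 library of DCKO thymocytes (Zfp36l1 and Zfp36l2 double conditional knockout) and 2 libraries of WT thymocytes, all from total naive thymocytes of C57BL/6JBabr mice. Intact cells received 300 mJ/cm2 of ultraviolet light, and an antibody against Brf1/2 was used for the immunoprecipitation, Brf1 and Brf2 being other names of ZFP36L1 and ZFP36L2. The list has 1 value per position and names no library, so DCKO and WT cells could not be compared and replicate error could not be computed. Which libraries entered the list is not given, so counts from DCKO cells may be among those described. The thymocyte label was checked against marker genes: all 10 thymocyte markers had counts, summing to 8746, against sums of 10 for B cells, 21 for myeloid cells and 11 for thymic epithelium, with Cd79a, Csf1r, Adgre1 and Foxn1 at 0.

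SnoRNAs are short nuclear RNAs that guide chemical changes of other RNAs, mostly ribosomal RNA. Box C/D snoRNAs bind fibrillarin and guide 2′-O-methylation, box H/ACA snoRNAs bind dyskerin and guide pseudouridylation, and small Cajal body RNAs do the same for spliceosomal RNAs. Most are cut out of the introns of host genes, many of which encode ribosomal proteins or serve mainly as hosts, whereas U3 and U8 have promoters of their own. ZFP36L1 is a zinc finger protein known for binding AU-rich elements in mRNA.

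Sequences of some of the snoRNAs with the most counts show where the strongest position of each lay. They were read from the RefSeq GRCm38.p6 genome at the gene bounds of GENCODE vM21, and the capitals mark the position with the highest count and 5 nt on either side. For the small Cajal body RNAs, only a stretch around that position is shown. In Gm22009 that stretch leaves out the densest 30 nt, nt 120 to nt 149, which held 226 counts, or 48.6% of the gene's counts.
Gm23262 (SNORD97), chr7:111076060-111076227, minus strand: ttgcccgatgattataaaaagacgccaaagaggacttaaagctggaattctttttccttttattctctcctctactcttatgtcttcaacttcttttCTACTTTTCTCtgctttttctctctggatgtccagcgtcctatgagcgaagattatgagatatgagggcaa
Rnu3a (U3), chr10:40258467-40258679, plus strand: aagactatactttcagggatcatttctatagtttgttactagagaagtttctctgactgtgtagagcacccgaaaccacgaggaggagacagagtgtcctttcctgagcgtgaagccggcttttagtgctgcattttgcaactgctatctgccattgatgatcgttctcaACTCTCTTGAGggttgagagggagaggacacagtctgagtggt
Snord118 (U8), chr11:69073427-69073561, plus strand: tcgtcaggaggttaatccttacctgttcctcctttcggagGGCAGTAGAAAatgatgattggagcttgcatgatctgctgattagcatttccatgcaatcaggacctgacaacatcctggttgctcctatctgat
Gm22680 (SNORD30), chr19:8725341-8725409, plus strand: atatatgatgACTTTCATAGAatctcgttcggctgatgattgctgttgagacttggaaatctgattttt
Snord2, chr16:23108953-23109021, plus strand: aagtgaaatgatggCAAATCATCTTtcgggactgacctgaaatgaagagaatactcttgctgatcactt
Snora73a (U17), chr4:132352775-132352979, minus strand: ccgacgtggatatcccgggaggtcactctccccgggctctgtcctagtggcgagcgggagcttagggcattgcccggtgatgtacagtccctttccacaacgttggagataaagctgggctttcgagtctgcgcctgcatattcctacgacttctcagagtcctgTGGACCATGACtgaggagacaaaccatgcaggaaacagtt
Gm24044 (SNORA62/SNORA6 family), chr9:120128780-120128935, plus strand: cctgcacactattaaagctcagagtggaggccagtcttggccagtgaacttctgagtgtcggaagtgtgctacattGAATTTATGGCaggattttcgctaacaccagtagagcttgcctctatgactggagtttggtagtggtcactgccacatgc
Gm22009 (small Cajal body-specific RNA 7), nt 1 to 85, chr3:69085363-69085447, minus strand: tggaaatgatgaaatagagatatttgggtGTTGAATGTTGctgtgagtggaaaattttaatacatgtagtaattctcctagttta
Scarna2, nt 43 to 143, chr3:108554609-108554709, minus strand: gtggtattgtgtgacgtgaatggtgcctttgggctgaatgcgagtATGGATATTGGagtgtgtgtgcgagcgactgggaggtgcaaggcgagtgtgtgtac

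The counts were held by few genes. Gm23262, which RefSeq annotates as SNORD97, a box C/D RNA known in human cells to guide methylation of a tRNA, held 913 counts over 91 positions, or 11.6% of all snoRNA counts. The 3 highest genes held 22.4%, the 10 highest 37.8% and the 20 highest 48.1%, and 23 genes held 50% of the counts. The median gene had 13.5 counts at 6 positions, 161 genes had 10 or more counts, 12 had 100 or more, and 39 had a single position. No measure of RNA abundance was used, so a count is not a rate of binding per molecule.

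**Figure D1:**
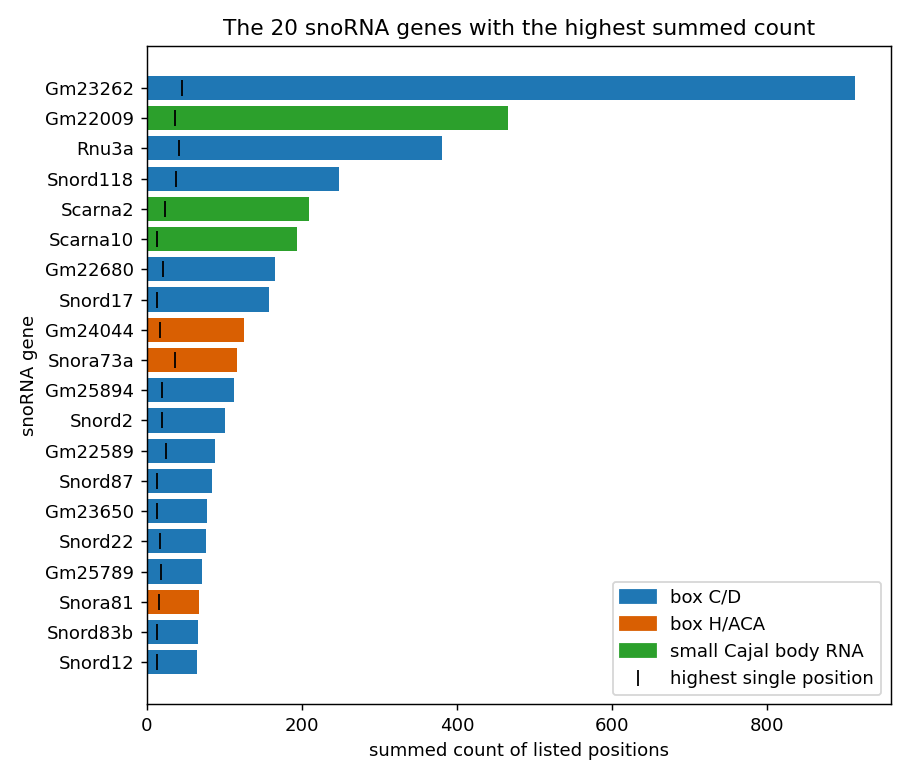
Bars give the summed count of each of the 20 highest snoRNA genes (horizontal axis), coloured by box class, and the black marks give the highest single position. Gm23262 stood at 913 counts and Snord12, the last of the 20, at 65, and the highest single position of Gm23262 held 46.

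After Gm23262, the next genes were Gm22009, annotated as small Cajal body-specific RNA 7, with 465 counts, and Rnu3a, a gene of U3, which is needed for cleavage of the ribosomal RNA precursor, with 380. Snord118, or U8, which acts in the maturation of the large ribosomal subunit RNAs, held 248. Scarna2 and Scarna10, guides for spliceosomal RNAs, held 209 and 193. These 6 genes include all 3 small Cajal body RNAs above 16 counts. The box C/D genes Gm22680 (SNORD30), Snord17, Gm25894 (SNORD26) and Snord2 followed with 165, 158, 112 and 101 counts. The highest box H/ACA genes were Gm24044 (SNORA62/SNORA6 family) with 125 counts and Snora73a with 116. The other genes among the 20 highest, Gm22589, Snord87, Gm23650, Snord22, Gm25789, Snora81, Snord83b and Snord12, lay between 65 and 88 counts.

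Several snoRNAs act in the cleavage of the ribosomal RNA precursor, and their genes held unequal counts. Of 10 genes annotated with a U3 name, 3 were listed: Rnu3a with 380 counts, ACEA_U3-ENSMUSG00000098943 with 8 and U3-ENSMUSG00000098425 with 3. RefSeq annotates Gm24826 with 3 counts and Gm25203 with 2 as U3 too. The 4 U14 genes, which act in small-subunit RNA processing, held 48 (Snord14c), 48 (Snord14d), 32 (Snord14e) and 18 (Snord14a). The U17 genes Snora73a and Snora73b held 116 and 60, Gm26448 and Gm24533, of the SNORA73 family by RefSeq, held 50 and 2, and Snord13 (U13) held 47. Snord22 held 76. Of the small Cajal body RNAs, Scarna9 had 9 counts, Scarna3a 4 and Scarna17 2, and Scarna13 was not listed. Scarna9 is annotated over 70 nt, and 57 counts lay in the 130 nt between it and the upstream gene Gm24339, so its value depends on these bounds. None of the 17 genes annotated as Snord116 was listed; 14 of them share their whole sequence with another member. The 30 nt that follow the strongest position occurred once on the assembled chromosomes for 255 of 271 genes, holding 95.5% of the counts, and for 18 of the 20 highest. The exceptions among these were Gm24044 with 2 copies and Snora73a with 5, so their counts may share reads with other genes.

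Box class was first taken from the gene name. Names starting with Snord gave 67 box C/D genes with 1885 counts, names starting with Snora 35 box H/ACA genes with 910, and Scarna names 8 genes with 423. The other 162 genes, 152 of them with a Gm name, held 4641 counts, or 59.1%. RefSeq products at the same place and strand told the class of 139 of these. With both sources, box C/D took 127 genes, 1289 positions and 4685 counts, or 59.6% (58.5 to 60.7). Box H/ACA took 104 genes, 766 positions and 1945 counts, or 24.7% (23.8 to 25.7). Small Cajal body RNAs took 18 genes and 955 counts, or 12.2% (11.4 to 12.9), and 23 genes with 274 counts had no class. The classes below are those of name and RefSeq together, a choice made after the names were seen to leave most counts without a class.

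Box C/D genes were denser in counts than box H/ACA genes. They held 41.3 counts per 100 nt of gene, against 13.4 in box H/ACA genes, with medians per gene of 22.9 and 8.40 counts per 100 nt. The median gene held 19 counts in box C/D and 11.5 in box H/ACA. Small Cajal body RNAs held 29.1 counts per 100 nt, but their median gene held 5 counts, and 94.0% of their counts lay in their 5 highest genes. By name alone the densities were 32.4 in box C/D and 18.5 in box H/ACA. The 5 highest by name were Snord118, Snord17, Snord2, Snord87 and Snord22 for box C/D. For box H/ACA they were Snora73a, Snora81 (67), Snora24 (64), Snora73b and Snora62 (47).

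The authors' FDR, a score per position made by a randomisation that none of the sources used describes, was below 0.05 at 924 snoRNA positions, or 38.1% (36.1 to 40.005), against 30.7% of the whole list. It was below 0.05 at 47.3% (44.6 to 50.05) of box C/D positions, at 21.4% (18.7 to 24.5) of box H/ACA positions and at 45.0% (38.9 to 51.2) of small Cajal body RNA positions. The box H/ACA share thus lay below that of the whole list and the box C/D share above it. By name alone the shares were 43.1% (39.3 to 46.9) for box C/D and 22.2% (18.1 to 26.9) for box H/ACA. Positions labelled snRNA reached 58.3% and positions labelled lincRNA 41.8%. The FDR did not follow the count of the position alone. In Gm23262, nt 72 with 1 count had an FDR of 0, whereas nt 36 with 19 counts had 1.13. Neighbouring positions often shared 1 value, and the intervals of these shares do not take this into account.

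Single positions in snoRNAs carried higher counts than the list as a whole. The mean count was 3.24 at snoRNA positions and 1.76 over the whole list. Counts of 5 or more stood at 14.95% (13.6 to 16.4) of snoRNA positions and at 1.90% (1.86 to 1.94) of all listed positions. The same share was higher in positions labelled mitochondrial rRNA (33.3%), misc_RNA (23.1%), snRNA (20.06%) and lincRNA (17.1%). It was lower in the 112 rRNA positions (12.5%), in miRNA (9.45%) and in processed transcripts (2.75%). Antisense genes had 1.96% and protein-coding genes 1.17%. Over all positions with the segment label ncRNA, snoRNA positions included, the share was 19.25% and the mean count 5.07, both above the snoRNA values.

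**Figure D2:**
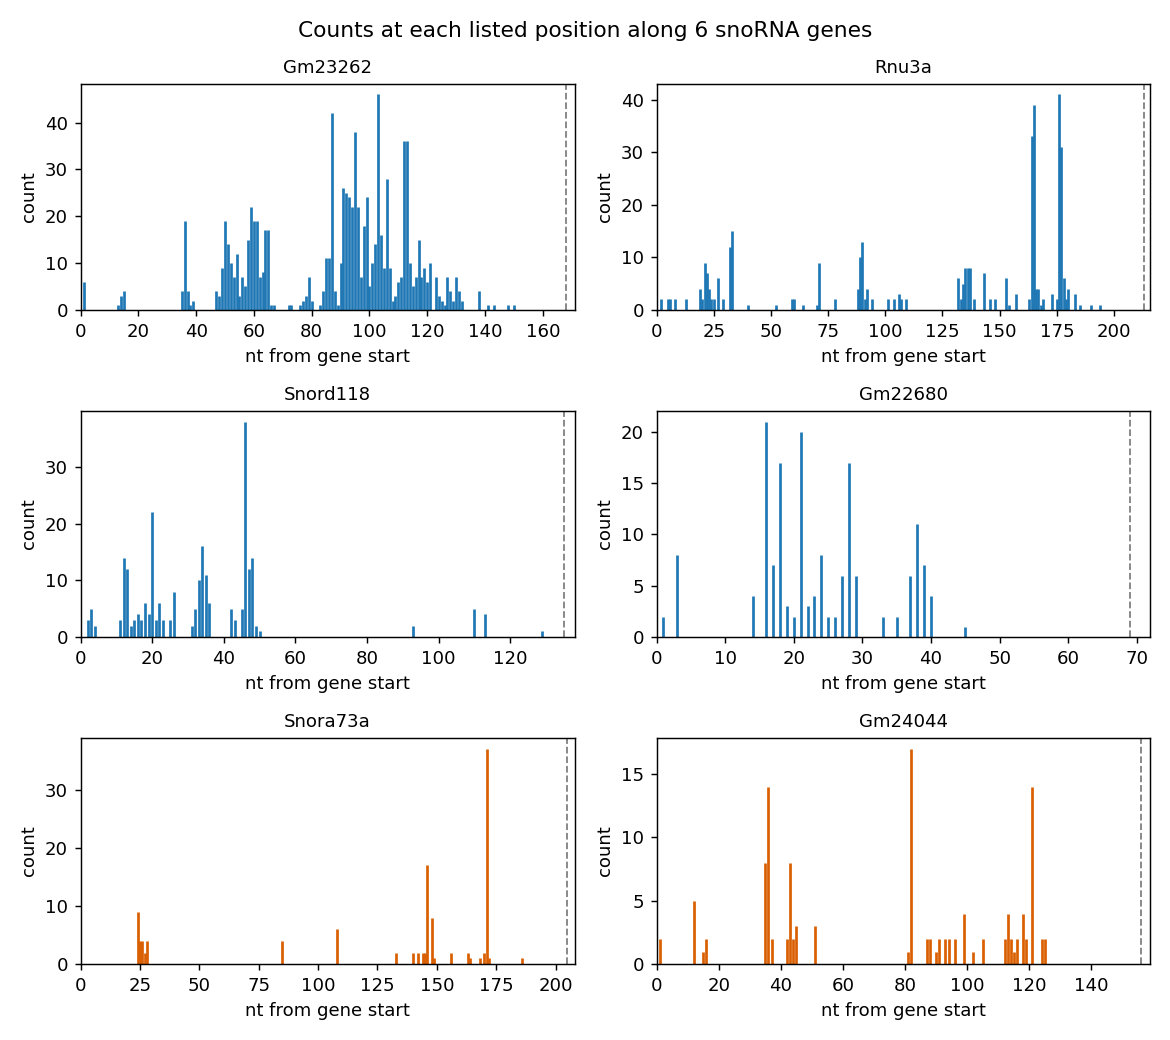
Counts (vertical axis) at each listed position against nt from the gene start (horizontal axis) in 4 box C/D genes (blue) and 2 box H/ACA genes (orange), with the last nucleotide as a dashed line. Counts gathered in a few stretches of each gene and were few near its end, with the highest position at nt 103 in Gm23262, nt 176 in Rnu3a and nt 171 in Snora73a.

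The counts within a gene gathered in short stretches that differed from gene to gene. In Gm23262, the highest positions were nt 103 with 46 counts, nt 87 with 42, nt 95 with 38, and nt 112 and nt 113 with 36 each, so the counts formed a broad block. The 30 nt from nt 85 to nt 114, where T made up 60% of the bases against 38.1% of the whole gene, held 522 counts, or 57.2% of the gene's counts on 17.9% of its length. In Rnu3a, counts were highest at nt 176 with 41 and nt 165 with 39, close to the 3′ end of U3, and nt 151 to nt 180 held 48.4%. In Snord118 the highest position was nt 46 with 38 counts, and nt 19 to nt 48 held 176 counts, or 71.0%. Both positions of Rnu3a lie in the 3′ part of the RNA, whereas the counts of Snord118 lay in its 5′ part.

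Several of the shorter box C/D genes held nearly all counts in 1 stretch of 30 nt. That stretch held 93.3% of the counts in Gm22680, 96.4% in Gm25894, 98.0% in Snord2, 97.7% in Gm22589 and 98.5% in Snord12, on 33.3% to 43.5% of their length, against 77.4% in Snord87 and 69.7% in Snord83b. Gm22589 had 25 counts at nt 16 and 25 at nt 17, and 87.5% of its 88 counts lay within 5 nt of the strongest position. In the box H/ACA gene Snora73a, nt 171 held 37 of the 116 counts, and nt 146 held 17. Gm24044 was spread more widely, with 17 counts at nt 82, 14 at nt 36 and 14 at nt 121. Gm22009 had 36 counts at nt 35 and 33 at nt 124, and Scarna2 had 23 each at nt 93 (shown above) and nt 138. Over the 161 genes with 10 or more counts, the strongest position held a median of 22.7% of the counts, with a range of 5.04% to 71.4%.

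Each gene was split into 5 equal parts, and box C/D and box H/ACA genes differed in shape, with few counts in the last part of either. From the first to the last part, box C/D genes held 17.7%, 33.96%, 28.1%, 16.9% and 3.31% of their counts. Box H/ACA genes held 21.6%, 25.6%, 22.8%, 25.3% and 4.58%. The box C/D counts were thus highest in parts 2 and 3, whereas parts 1 to 4 of box H/ACA genes lay within 4 percentage points of each other. Without the 5 highest genes, part 4 of box C/D genes held 10.4% of the counts and the last part 1.34%.

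The last 20 nt of the genes were nearly free of counts. They held 42 of 7856 counts inside genes, or 0.535% (0.396 to 0.722), on 16.9% of the summed gene length, and the last 10 nt held 7 counts. In box C/D genes the last 20 nt held 0.534% on 22.4% of the length, and in box H/ACA genes 0.823% on 14.4%. The 20 nt before those held 1311 counts. In all 161 genes with 10 or more counts the strongest position lay at least 22 nt before the end, with a median of 48.5 nt in box C/D genes and 68 nt in box H/ACA genes. In 242 of 271 genes, or 89.3%, no listed position lay in the last 20 nt. The lengths of the cDNAs are not in the list, and their part in this was not tested.

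**Figure D3:**
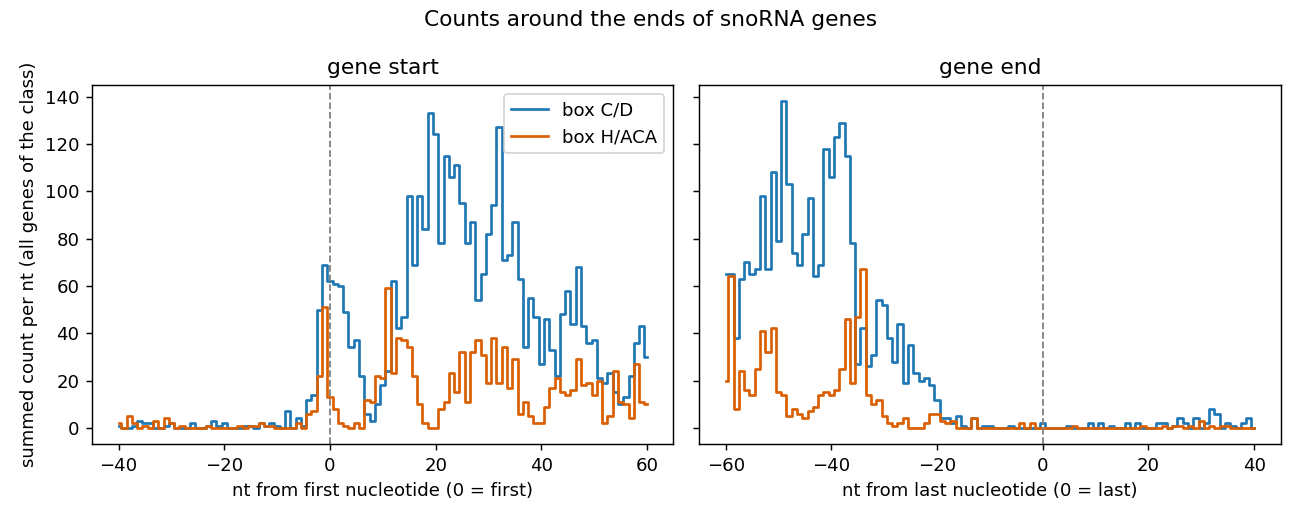
Summed count per nt (vertical axis) over all box C/D genes (blue) and all box H/ACA genes (orange), against the distance from the first nucleotide (left) and from the last nucleotide (right). Counts were near 0 over the last 20 nt and beyond the end in both classes, and a narrow peak stood at the gene start.

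At the other end, counts began abruptly just before the annotated start. The base before the first nucleotide held 141 counts in 40 genes, with 19 in Rnu3a, 8 in Gm24148, and 7 each in Snora3 and Gm23262. The 4 bases before the start held 269 counts, and the 20 bases before those held 48. None of these counts carried the snoRNA label: of the 269, 135 were labelled protein-coding, 57 processed transcript, 21 lincRNA and 4 antisense, and 52 had no label. They are thus not among the 7859.

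Outside the genes, counts were sparse. Inside, all listed counts on the same strand came to 24.5 per 100 nt, against 1.77 in the 100 nt upstream and 1.20 in the 100 nt downstream, a density 16.5 times (15.4 to 17.8) that of the flanks. The upstream flank held 479 counts and includes the 4 bases before the start, which held 269. These 4 bases thus raise the upstream density and lower the fold. The fold was 24.1 (21.9 to 26.6) for box C/D genes, 15.2 (13.1 to 17.7) for box H/ACA genes and 13.9 (10.98 to 17.6) for small Cajal body RNAs. These genes are in the list because they hold at least 1 position, which favours the inside. Over all 1558 annotated genes, listed or not, the densities were 4.37 counts per 100 nt inside and 0.268 in the flanks, or 16.3 times.

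The D box, the CTGA near the 3′ end that box C/D proteins bind, held no counts. It was found in the last 15 nt of 117 of 127 box C/D genes. Of 3694 counts in those genes, 0 lay in the box and 6, or 0.162% (0.0745 to 0.354), lay in it or within 5 nt of it, on 15.1% of the length. The 3′ ends of 6 of the highest genes with a D box are shown to set the box against the counts, with CTGA in capitals.
Gm22680, chr19:8725370-8725409, plus strand: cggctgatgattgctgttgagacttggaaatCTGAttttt
Snord17, chr2:144265979-144266018, minus strand: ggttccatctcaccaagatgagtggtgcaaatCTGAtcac
Gm25894 (SNORD26), chr19:8724286-8724325, plus strand: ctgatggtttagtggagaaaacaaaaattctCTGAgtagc
Snord2, chr16:23108982-23109021, plus strand: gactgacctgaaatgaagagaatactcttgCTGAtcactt
Gm22589 (SNORD83), chr17:35242715-35242754, plus strand: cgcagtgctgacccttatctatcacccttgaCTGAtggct
Snord87, chr1:9942463-9942502, minus strand: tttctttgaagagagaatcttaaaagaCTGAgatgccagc
Of these 40 nt, Gm22680 held 33 counts, Snord17 3, Gm25894 6, Snord2 24, Gm22589 5 and Snord87 5. Within the last 20 nt, Snord17 and Snord2 held 2 each and the other 4 genes shown none. Rnu3a and Snord118, whose whole sequences stand above, held 92 and 10 counts in their last 40 nt and 1 each in their last 20 nt.

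In the 75 box C/D genes with both boxes, the density climbed and then fell toward the D box. It was 42.8 counts per 100 nt at 60 to 41 nt before the box, 78.0 at 40 to 31 nt, 45.6 at 30 to 21 nt, 19.7 at 20 to 11 nt and 1.47 in the 10 nt just before it. The stretch just before a D box is where box C/D guides pair with their target RNA, but a link between pairing and these counts was not tested. The C box TGATGA, found in the first 20 nt of 79 genes, held 0.924% of 2164 counts on 7.18% of the length, and with 5 nt on either side 13.3% (11.9 to 14.8) on 18.8%. The ACA box was found in the last 10 nt of 99 of 104 box H/ACA genes, and 0.217% (0.0845 to 0.557) of 1841 counts lay in it or within 5 nt, on 7.68% of the length. The D and ACA boxes lie within the last 20 nt, so the box and the end of the gene cannot be told apart. The fall just before the D box also lies near the end of the gene, and the same limit holds for it.

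**Figure D4:**
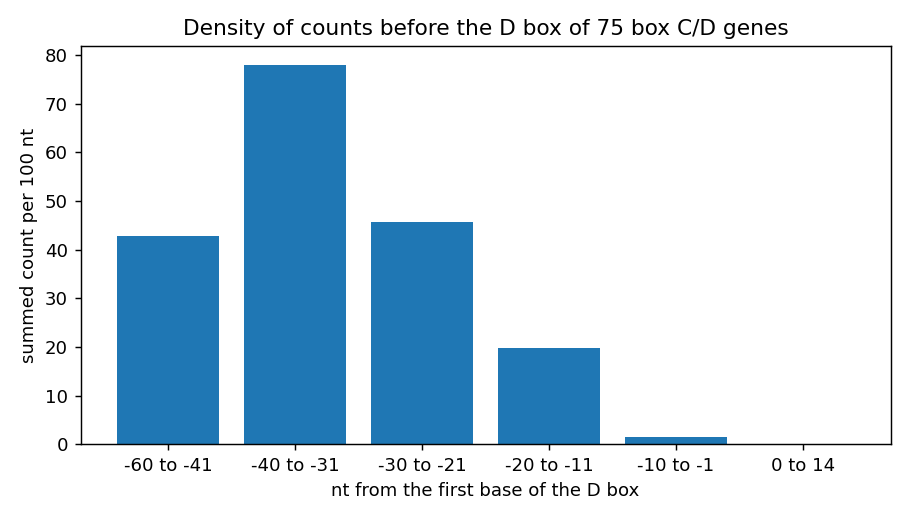
Bars give the summed count per 100 nt (vertical axis) in bins of distance before the first base of the D box (horizontal axis), over 75 box C/D genes that hold both boxes. The density was highest, at 78.0, in the bin from 40 to 31 nt before the box, and was 0 in the box and after it.

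The base at the position was most often T. T stood at 41.6% (39.6 to 43.6) of the 2426 positions inside the genes, against 28.1% of all bases of those genes. A stood at 16.0% and G at 18.3%, against 24.5% and 25.1% of gene bases, and C stood at 24.1% against 22.3%. T stood at 41.6% of box C/D positions, 42.0% of box H/ACA positions and 40.96% of small Cajal body RNA positions, so the classes differed by less than their intervals. The base after the position was T at 38.2% and A at 31.1% of positions.

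The share of T was higher at positions with higher counts. It was 36.4% (32.8 to 40.1) at positions with a count of 1, 39.9% (37.0 to 43.0) at 2, 44.9% (39.96 to 49.99) at 3 to 4, 46.8% (40.4 to 53.2) at 5 to 9 and 62.1% (53.6 to 69.9) at the 132 positions with 10 or more. Without the 5 highest genes, the last share was 55.6% (43.3 to 67.15) over 63 positions in 41 genes. G had the opposite order, with 26.2% at a count of 1 and 6.82% at 10 or more.

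**Figure D5:**
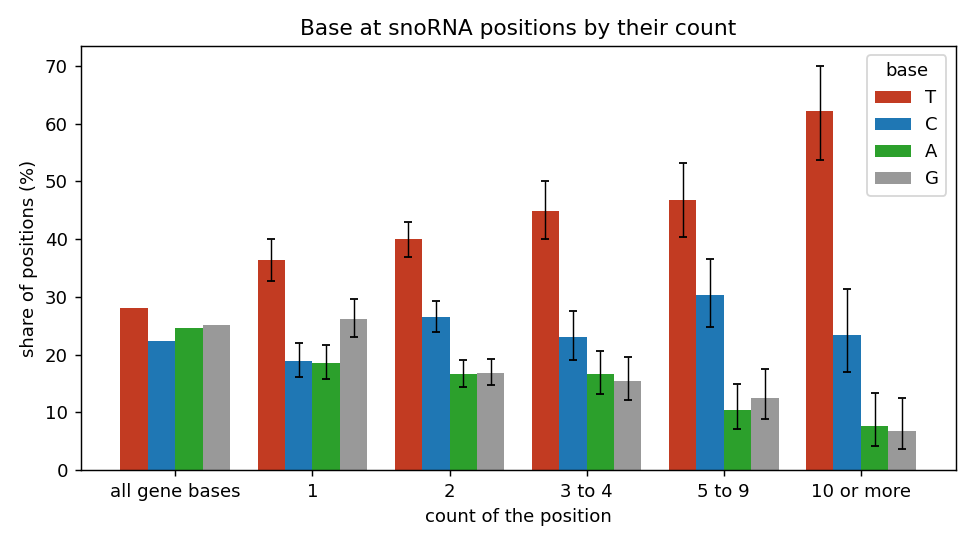
Bars give the share of positions (vertical axis, percent) with each base, for all bases of the snoRNA genes and for positions with counts of 1, 2, 3 to 4, 5 to 9 and 10 or more (horizontal axis). Error bars are 95% Wilson intervals. T made up 28.1% of gene bases and 62.1% of positions with 10 or more counts.

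The AU-rich core TATTTA was rare in the snoRNA genes, to a like degree near listed positions and over all places. It lay within 20 nt on the same strand, flanking bases included, of 14 of 2426 positions, or 0.577% (0.344 to 0.966), and of 0.612% of all places in the snoRNA genes, in 10 genes. ATTTA, which TATTTA contains, lay near 3.30% (2.66 to 4.09) of positions and 3.33% of places. A run of TTTTT lay near 6.68% (5.75 to 7.74) of positions and 4.17% of places. In box C/D genes the TTTTT shares were 10.01% (8.49 to 11.8) of positions and 5.72% of places, and 18.6% of counts. Without Gm23262 they were 5.59% of positions, 5.14% of places and 5.75% of counts, so the difference rested on that gene. In box H/ACA genes they were 3.92% (2.76 to 5.54) and 4.21%.

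Host genes of known snoRNA clusters held listed members almost throughout. All 8 snoRNAs annotated in Snhg1, a non-coding host gene, were listed and summed to 516 counts, whereas positions named Snhg1 itself summed to 60. In order along the gene they held 40 (Gm25855, SNORD25), 112 (Gm25894, SNORD26), 41 (Gm24452, SNORD27), 24 (Gm24453, SNORD28), 37 (Gm22744, SNORD29), 165 (Gm22680, SNORD30), 21 (Gm23246, SNORD31) and 76 (Snord22). The highest member of Snhg1 thus held 7.86 times the counts of its lowest. In Gas5, a host with 10 annotated snoRNAs, 9 were listed with 323 counts, from 1 (Gm23436, SNORD78) to 71 (Gm25789, SNORD81), and positions named Gas5 summed to 125. In Rpl13a, which encodes a ribosomal protein, the 4 members held 26 (Snord35a), 6 (Snord34), 23 (Snord33) and 13 (Snord32a). Eif4a2, which encodes a translation initiation factor, hosts all 5 of its annotated snoRNAs in the list, with 308 counts, 4 of them box H/ACA.

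By kind of host, 57 snoRNAs lay in ribosomal protein genes and held 17.8% (16.98 to 18.7) of the counts, with a median of 23 per gene. The 28 in Snhg genes and Gas5 held 14.3% (13.5 to 15.1), with a median of 31. The 40 in genes of translation, chaperone and nucleolar proteins held 26.02% (25.1 to 27.003) with a median of 21.5, and Gm23262 in Eif4g2 gave 913 of their 2045 counts. The 126 in other hosts held 29.2% with a median of 7, and the 20 with no host held 12.7% with a median of 4, most of it from Rnu3a, Snord118 and Scarna2. Without the 5 highest genes, the ribosomal protein share was 24.8%, the Snhg and Gas5 share 19.9% and the share with no host 2.85%. The host groups were drawn up after the gene names were seen. They were told by the host gene's name alone, so the other hosts can include genes of the same kinds under other names. Zfas1, whose snoRNAs held 111 counts, and Gnl3, whose snoRNAs held 22, were placed there.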

How the data were processed

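The members and the gene lists were chosen with earlier results of these data known. The authors deposited 1 list for the series, in which each position has a whole-number value with the strand as its sign, named counts per the file headers and treated here as a score. Its FDR is also a deposited score, whose making none of the sources used describes; the deposited p-value was not used. Bowtie and GRCm38 are named per the submitters' processing notes, and filters, treatment of reads with several places and the libraries that entered the list are not given. The design allowed for values per library; the list has none, so the parts on DCKO against WT were not computed, and depth per library is unknown.

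Positions count from 0 in the list and were moved by 1 nt, which put 2426 of the 2428 snoRNA positions inside the matched gene. GENCODE vM21 gave gene bounds and hosts (262 genes matched by name, 9 by position, 1, Gm22574 with 3 counts, not matched), and RefSeq GRCm38.p6 gave sequence and products. Motifs were sought on the RNA strand: the C box TGATGA in the first 20 nt, the D box CTGA in the last 15 nt and ACA in the last 10 nt. Shapes of single genes use genes with 10 or more counts. Intervals of shares are 95% Wilson intervals for counting error alone, and that of a density ratio likewise. No test across genes was made. Named are the 20 genes with the highest summed count, the 5 highest of each class by name, the 5 highest positions, and fixed U3, U8, U13, U14, U17, Snord22, Snord115, Snord116, Gas5, Snhg1, Rpl13a and Scarna sets; no gene was annotated under the name Snord115, and other names were chosen after their values were seen. Python 3.11.15, pandas 2.3.3, numpy 2.4.6 and pysam 0.24.0 were used, and the scripts were tested on simulated data.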

Additional observations from a re-analysis of the deposited data

How the results depend on the processing

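Each of 20 results was recomputed under its alternatives, and 17 of 50 values stayed within the interval given for the result. Among these 17, the values without the 5 highest genes for the C box, the ACA box and part 4 of box H/ACA genes could not move. None of those 5 genes entered these results. The snoRNA share of positions was 0.651% at an FDR below 0.05 and 0.733% below 0.01, and the share of counts 1.26% and 1.38%, or 0.837% with counts halved and rounded up. By name, box C/D held 25.1% of counts at an FDR below 0.05, 44.2% with box motifs added, 25.7% without the highest gene of each class and 59.6% with RefSeq products, an alternative chosen after seeing the data. Box H/ACA held 6.60% at an FDR below 0.05, 6.29% below 0.01, 24.1% with motifs, 12.5% without the highest genes and 24.7% with RefSeq, below box C/D under each of these settings. The 10 highest genes held 22.1% of positions, 28.4% of counts per nt and 51.0% of counts at an FDR below 0.05. An FDR below 0.01 held at 34.2% of positions. The last of 5 equal parts of the gene held 3.998% of positions, 1.70% with genes weighted equally and 2.69% without the 5 highest genes. Part 2 of box C/D genes held 31.5% of positions, and 37.98% of counts without those 5. Within 5 nt of the D box lay 0.431% of positions. T stood at 43.6% of positions below FDR 0.05 and at 48.4% of counts, and TATTTA near 0.216% of positions below FDR 0.05. TTTTT lay near 5.59% of box C/D positions without Gm23262, also added after seeing the data. The fold over the flanks was 12.9 with 50 nt, 21.8 with 200 nt and 16.3 over all annotated genes, added after seeing the data. Without the 5 highest genes, hosts held 24.8% (ribosomal protein), 19.9% (Snhg and Gas5) and 20.06% (translation, chaperone and nucleolar). The causes were not tested. Depth per library is unknown, and 660 positions inside genes rest on a count of 1. No paired analysis was possible because the list carries no library.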

Other observations

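Of the genes labelled snoRNA, 5 carried microRNA names: Mir5117 with 58 counts, Mir677 with 19, Mir3068 with 11, Mir1839 with 9 and Mir1949 with 6. Mir5117 lies in Gas5 between snoRNAs of that host. Among the genes that share a RefSeq product, Gm26447 and Gm24201, both SNORA63 in Eif4a2, held 56 and 43 counts, and Gm22357 and Gm23969, both SNORD24, held 40 and 33. By contrast Gm22589 and Gm25128, both SNORD83, held 88 and 13, and Gm24616 and Gm25588, both SNORA4, held 41 and 1.

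Among genes in the annotation whose class a name tells, 68.4% of 98 Snord genes, 83.3% of 42 Snora genes and 88.9% of 9 Scarna genes were listed. With RefSeq products added, the shares were 32.6% of 389 box C/D genes, 13.6% of 767 box H/ACA genes and 39.1% of 46 small Cajal body RNA genes, so the order of box C/D and box H/ACA turned. Of the genes with a host, 118 overlapped an exon of some transcript of the host and held 4251 counts, and 133 lay in introns alone and held 2607.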
